A study of Rattus norvegicus with 9 samples.

Results

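Cytosolic ribosomal proteins were examined in peripheral blood mononuclear cells (PBMC) of rats on 2 diets. The members were all probes, other than control spots, whose gene name in the scanner files, with the ending _predicted or _mapped removed, begins with Rpl or Rps and a digit or is Rplp0, Rplp1, Rplp2 or Rpsa. The Rps6k kinases were left out. The names gave 72 genes with 108 probes that passed the filter on dim signal. The array held 41012 probes with 35658 gene names. Probes with such a name that failed the filter, if any, were not counted. For each gene the values are those of the probe with the highest mean Cy5 signal.

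The cafeteria group held 5 male Wistar rats fed a cafeteria diet, a choice of palatable and energy-rich foods used to make rats obese, which they received from 2 months of age and for 4 months. The control group held 4 male Wistar rats on chow, and a further control animal had been set aside by the submitters for too little RNA. All 9 rats were 6 months old, were bled in the fed state from the saphenous vein, and gave 1 array each. PBMC are the lymphocytes and monocytes that a Ficoll gradient separates from blood. RNA of the animal was labelled with Cy5 and a pool of RNA from all groups with Cy3, always in that orientation, so values are log2 ratios of the animal over the pool. In such bulk samples, fewer cells of a type and less RNA per cell cannot be told apart.

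The cytosolic ribosome has a small subunit, which reads the mRNA, and a large subunit, which forms the peptide bonds. Its proteins are made in matched amounts, and resting lymphocytes enlarge their ribosome pool when they are activated. The mRNAs of ribosomal proteins are known in vertebrates for a 5' terminal oligopyrimidine (TOP) tract, a run of pyrimidines that starts at the first transcribed base and through which the mTOR kinase, a nutrient sensor, controls their translation. An array reports how much of these mRNAs is present and says nothing about how they are translated.

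The TOP tract is the sequence feature these genes are known for, and the following lines show it for members described below and for Rpl31 and Rpl19, which carry long tracts. Each line gives the 15 bases before the transcription start that RefSeq annotates and the first 15 transcribed bases, on the GRCr8 build. Capitals mark an unbroken run of C and T that begins with a C at the first transcribed base.
Rpl10, subunit-joining protein of the large subunit (chrX:157205835-157205864, plus strand): caggcgtgggagcgtCTCTTTTCCTCTggc
Rpl31 (chr9:49143096-49143125, plus strand): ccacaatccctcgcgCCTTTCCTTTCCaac
Rpl19 (chr10:83519049-83519078, plus strand): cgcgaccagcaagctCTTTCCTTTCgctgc
Rpl37a (chr9:81748076-81748105, plus strand): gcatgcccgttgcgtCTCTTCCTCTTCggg
Rplp1 (chr8:71290858-71290887, minus strand): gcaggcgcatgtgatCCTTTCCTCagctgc
Rps26 (chr7:1643390-1643419, minus strand): gagagccgccgggtcCTCTTTCgagtcttg
Rps3a (chr2:173827028-173827057, minus strand): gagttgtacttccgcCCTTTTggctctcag
Rps7 (chr6:50999431-50999460, minus strand): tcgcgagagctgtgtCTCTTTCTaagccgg
Rpl11 (chr5:153560788-153560817, minus strand): ggggacttgaagcttgtttggtgctgggga
Rps12 (chr1:23500060-23500089, plus strand): gcacagaagcccagcagagcgcttaaatac

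The motif counted was a C at the annotated first base followed by at least 4 bases that are each C or T, read on the strand of the gene. Of 72 members, 59 had a promoter in the RefSeq table, and Rps27a had more than 1 entry, which gave 60 promoters. The motif stood at the start of 22 of the 60 (36.7%), against 881 of all 33469 promoters in the table (2.63%) and 2 of 68 promoters of mitochondrial ribosomal proteins (2.94%). Rpl11 and Rps12 are shown as members without it. A start annotated a few bases off hides the motif, and no match says only that these letters do not begin at that base. Over the 58 members with a single promoter, the 22 with the motif had a median difference between groups of 0.15 on the log2 scale, with 19 above 0. The 36 without it had a median of 0.14, with 34 above 0.

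No cytosolic ribosomal protein gene differed between cafeteria and control animals at an adjusted p under 0.05. The limma fit over all 25805 probes that passed the filter, with Benjamini-Hochberg adjustment, called 2 probes (0.00775% of those tested), and 0 of 72 members. The smallest adjusted p among the members was 0.997. Nor did any member have an unadjusted p under 0.05, a level reached by 1.54% of all probes in the higher and 2.86% in the lower direction. That count moved with the fit, and the number of all probes at that level follows in parentheses, 1136 of 25805 as reported. Without control 13 it was 9 of 72 (1113 of 25805), and it was 3 without control 1 (764) or control 7 (1191). It was 2 without cafeteria 1 (1648), 10 (982) or 13 (943), and 1 without control 4 (1344). Array weights gave 5 (1228). The scanner log ratio gave 1 (1572), as did no background correction (1498) and Cy5 alone (1448). The authors' deposited values gave 2 (2572 of 20164 probes). In 0 of 72 members were the groups free of overlap, where 0.453% of all probes lay wholly higher and 0.818% wholly lower in cafeteria animals.

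The differences of the members lay mostly on one side of 0, and that side depended on the scaling and on the slide. With loess normalization within each array, 66 of 72 genes had a difference above 0 (cafeteria minus control), where 54.3% of all probes did, and their median was 0.14 on the log2 scale, against 0.01 over all probes. With each array centred on its median in place of loess, 12 of 72 were above 0 and the median was -0.072. The side stayed the same with any 1 array left out, but its size did not. Without the array of control 4, 44 of 72 were above 0 and the median was 0.018, and without that of control 13, 69 of 72 were above 0 and the median was 0.22. With the slide as a block 28 of 72 were above 0, with a median of -0.024. The median was 0.15 within the slide that held cafeteria 1 and control 1, and -0.19 within the slide that held cafeteria 10 and control 13. Each of these compares 1 animal with 1 other, so slide and animal cannot be told apart. The signs of the single genes below are those under loess.

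**Figure D1:**
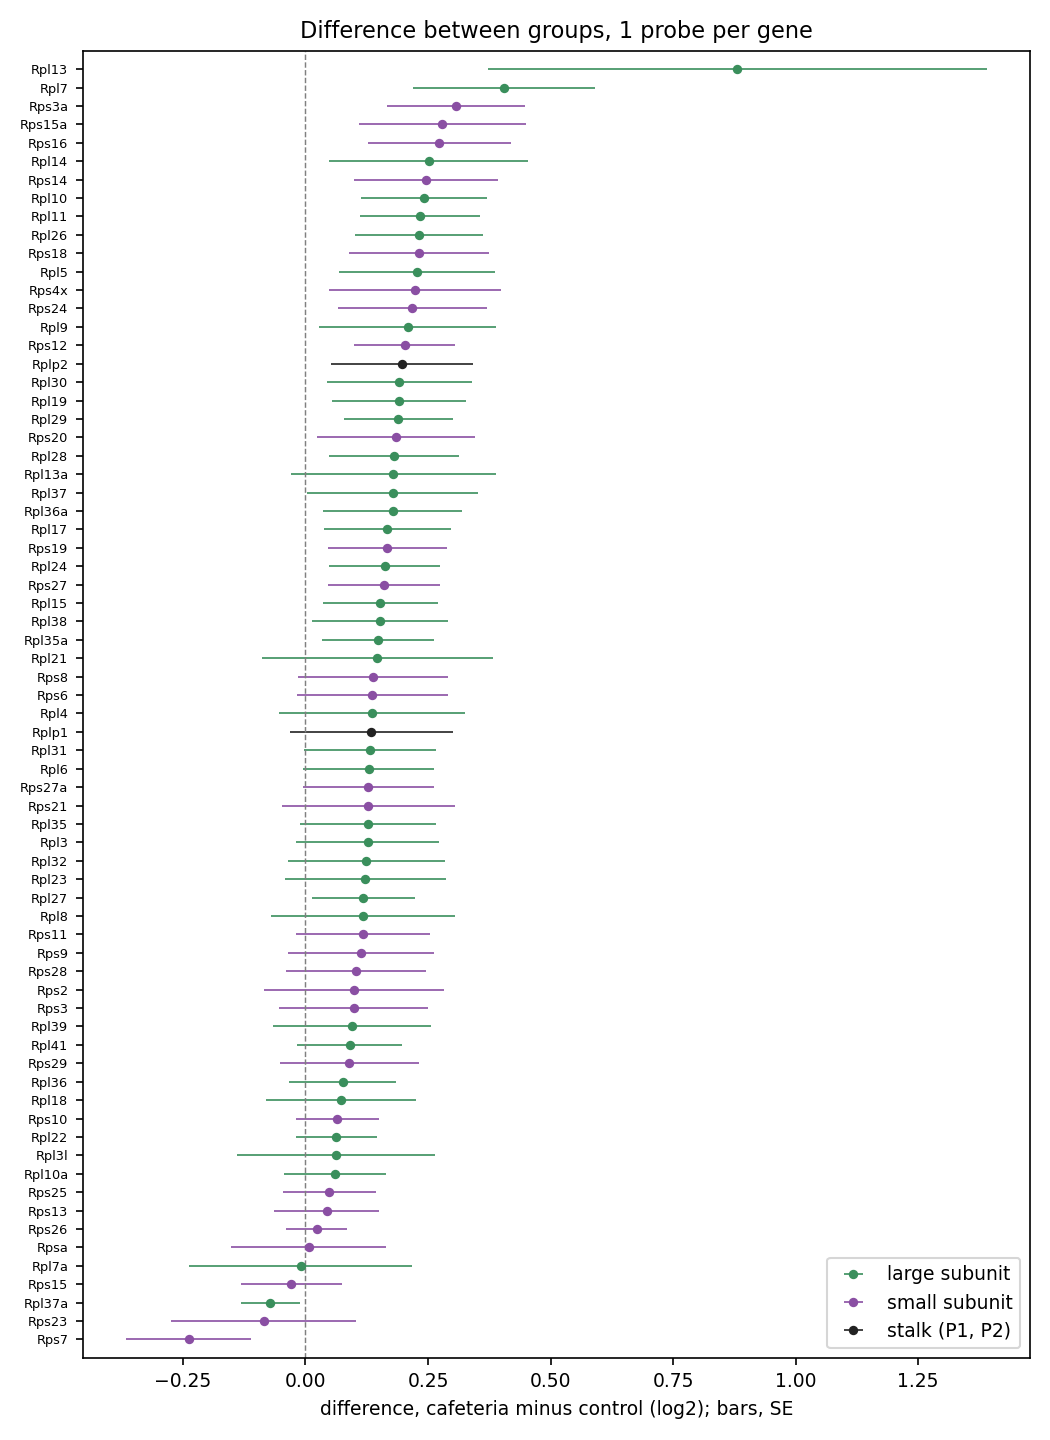
Difference of the group means, cafeteria minus control, on the log2 scale (horizontal axis) for 70 of the 72 cytosolic ribosomal protein genes (rows, highest at the top), with points coloured by subunit and bars giving the SE of the limma fit. Rpl13 stands at 0.88 with an SE of 0.51, Rps7 at -0.24, and 65 of the genes drawn lie above 0 under loess normalization, where 12 of all 72 do with median centring.

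The members shared shifts from array to array. Their median log2 ratio was 0.38, 0.44, 0.31, 0.16 and 0.16 on the arrays of cafeteria 1, 4, 7, 10 and 13, and 0.21, -0.23, 0.21 and 0.35 on those of control 1, 4, 7 and 13. Control 4 was the single array whose members lay mostly under the pool: 15 of 72 genes were above 0 there, against 48 to 67 on the other arrays. The ranges of the groups overlapped. Cafeteria 13 had values for 70 genes, since the spots of Rpl28 and Rpl29 were set aside there as outliers.

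**Figure D2:**
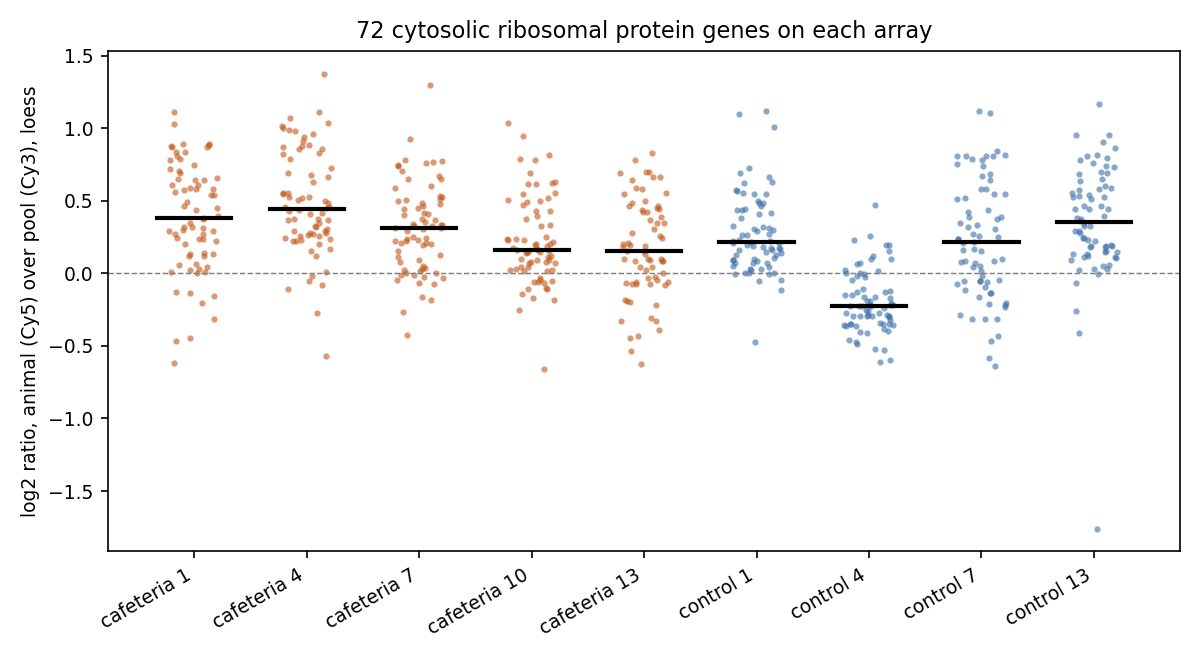
Log2 ratio of the animal over the pool after loess (vertical axis) for the 72 genes on each of 9 arrays, with 5 cafeteria arrays (orange) left of 4 control arrays (blue) and a bar at the median of each array. The medians run from 0.16 to 0.44 on cafeteria arrays and from -0.23 to 0.35 on control arrays, and control 4 is the one array with a median below 0.

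Under loess the shift shared by the members was a large part of their spread. The mean shift of each array accounted for 48.0% of the sum of squares within groups over the 72 genes, against 7.40% over 65 mitochondrial ribosomal protein genes and 13.6% over 38 initiation and elongation factors. With median centring the shares lay closer together, at 79.6% for the members, 68.6% for the mitochondrial ribosomal proteins and 69.5% for the factors. The SD of the array median within groups was 0.19 for the cytosolic ribosomal proteins, 0.04 for the mitochondrial ones and 0.07 for the factors under loess. A single member had a within-group SD of 0.24 in the median, where the median probe of the array had 0.13. These are bright probes: 70 of 72 lay above the 90th percentile of mean signal over all probes tested, and the median member was at percentile 99.5. Whether the height of the signal has a part in the shared shift was not tested.

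Under median centring another array stood apart. The member medians were then 1.71, 0.54, 1.50, 1.13 and 1.74 on the arrays of cafeteria 1, 4, 7, 10 and 13, and 1.21, 1.40, 1.77 and 1.18 on those of control 1, 4, 7 and 13. Cafeteria 4 was the lowest under this scaling and the highest under loess, and the SD of the array median within groups was 0.42. The mitochondrial ribosomal proteins and the factors then had SDs of 0.35 and 0.33, and all probes 0.18. With the scanner software's own log ratio the members' medians kept between -0.03 and 0.22 on cafeteria arrays and between 0.00 and 0.15 on control arrays.

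Markers of other blood cells differed between arrays as well. Of the 9 platelet markers, 9 were measured and 9 had a difference below 0 (median -0.41, 0 past the adjusted threshold). Their median log2 ratio was -0.64, -0.12, -0.97, 0.22 and 0.25 on the arrays of cafeteria 1, 4, 7, 10 and 13, and -0.17, 1.10, -0.42 and 0.23 on those of control 1, 4, 7 and 13. The array with the lowest member median, control 4, had the highest platelet median. Platelets lack a nucleus, and they carry few ribosomes. The part of platelet RNA in the member values was not tested.

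**Figure D3:**
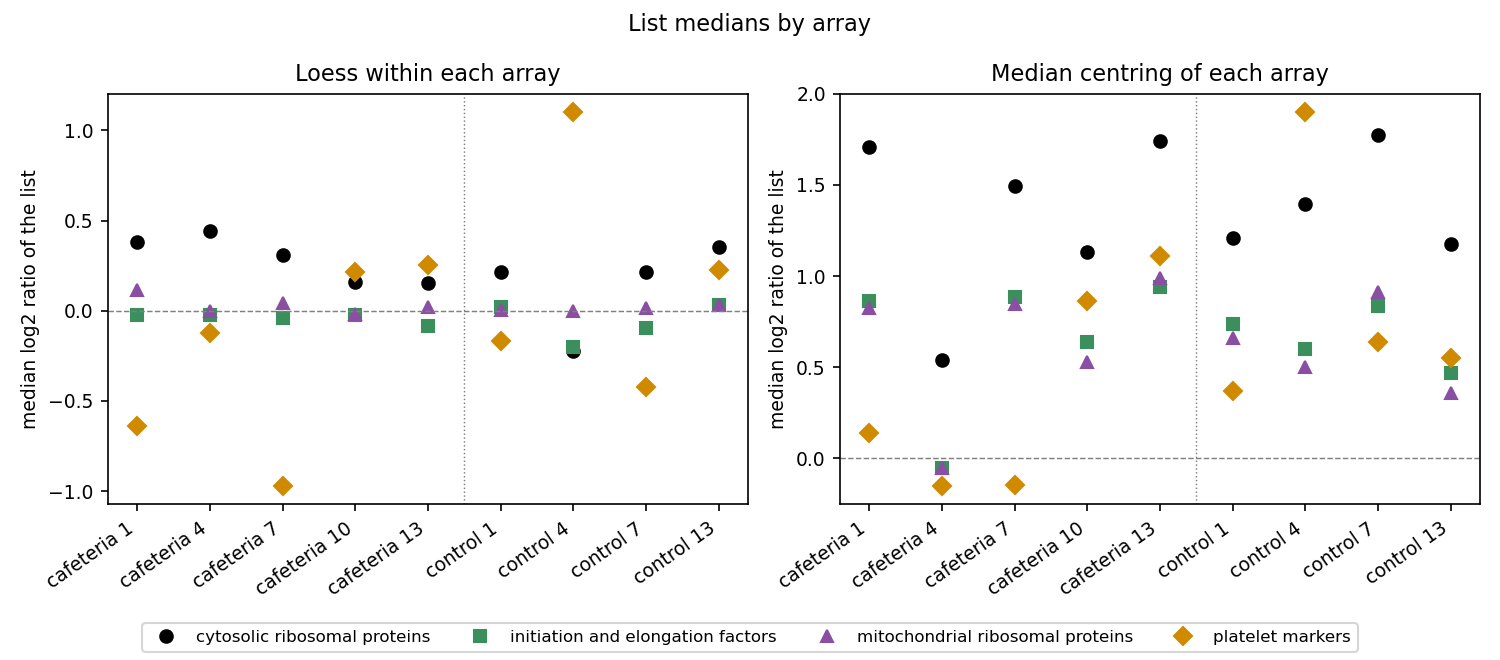
Median log2 ratio (vertical axis) of cytosolic ribosomal proteins, initiation and elongation factors, mitochondrial ribosomal proteins and platelet markers on each array, cafeteria left of control, after loess (left panel) and after median centring (right panel). After loess the ribosomal proteins are lowest on control 4 (-0.23), where the platelet markers are highest (1.10), and after median centring the ribosomal proteins are lowest on cafeteria 4 (0.54).

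The other marker lists had no gene past the adjusted threshold either. Each list median kept its sign with median centring. Differences were below 0 for 17 of 19 T cell markers measured (20 on the array, median -0.13), above 0 for 10 of 12 markers of cytotoxic T and NK cells (13 on the array, median 0.33) and above 0 for 13 of 13 B cell markers (15 on the array, median 0.25). They were above 0 for 4 of 12 monocyte (14 on the array, median -0.03) and 2 of 9 genes of the neutrophil list (14 on the array, median -0.05). The neutrophil counts and median include Cela2a at -0.03 (SE 0.05). That gene is a pancreatic elastase matched through the name Ela2, and is no neutrophil marker. Among 11 erythroid markers 8 had a difference above 0 (median 0.38), and 6 of these had an unadjusted p under 0.05 by limma. Over all probes, 1.54% reached that level in that direction. The 3 markers below 0 were Rhag at -0.71 (SE 0.53), Gata1 at -0.14 (SE 0.21) and Tfrc at -0.07 (SE 0.11). In 2 of the 11, Car2, the carbonic anhydrase abundant in red cells, and Alas2, the first enzyme of haem synthesis in red cell precursors, the groups did not overlap, as in 0.453% of all probes in that direction. Their differences were 0.57 (SE 0.09, limma adjusted p 0.455) and 0.61 (SE 0.15, limma adjusted p 0.853). The erythroid median ran from -0.41 to -0.07 on cafeteria arrays and from -0.60 to -0.22 on control arrays. The T cell median ran from -0.44 to 0.03 on cafeteria arrays and from -0.27 to 0.07 on control arrays. The B cell median ran from -0.26 to 0.34 on cafeteria arrays and from -0.26 to 0.13 on control arrays. The part of these markers' cells in the ribosomal protein values was not tested.

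In the large subunit 37 of 39 genes had a difference above 0, with a median of 0.15, and 6 of 39 with median centring. Rpl7, a protein of the large subunit (chromosome 5, 2317332 to 2317391, plus strand, rn4), had the smallest unadjusted p of the members. Its log2 ratio was 0.20, 1.04, 0.34, 0.55 and 0.09 in cafeteria 1, 4, 7, 10 and 13, and 0.21, -0.29, 0.05 and 0.20 in control 1, 4, 7 and 13. Cafeteria 4 was far above the rest, cafeteria 13 and cafeteria 1 lay among the controls, and the groups overlapped. The difference was 0.40 (SE 0.19, 1.32-fold), with a limma adjusted p of 0.997. It was 0.26 without cafeteria 4 and 0.14 with median centring, and ran from -0.0017 to 0.54 under the alternatives.

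Rpl13, another protein of the large subunit (chromosome 19, 53440119 to 53440178, plus strand), had the widest spread, a range of 3.05 over the 9 arrays. Its brighter probe read 0.32, 1.07, 1.30, 1.04 and -0.05 in cafeteria 1, 4, 7, 10 and 13, and 1.10, -0.26, 0.33 and -1.76 in control 1, 4, 7 and 13. Control 13 alone set most of the difference of 0.88 (SE 0.51, limma adjusted p 0.997), which was 0.34 without that array. A second, dimmer probe 5' of it on the same strand (53438523 to 53438582) read -0.01, 0.18, -0.03, -0.14 and -0.32 in cafeteria animals, and 0.04, -0.59, -0.27 and -0.09 in controls. The difference on that probe was 0.16 (SE 0.13), and control 13 lay inside the range of the others on it. Under the alternatives the difference of Rpl13 ran from -0.78 to 2.79.

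**Figure D4:**
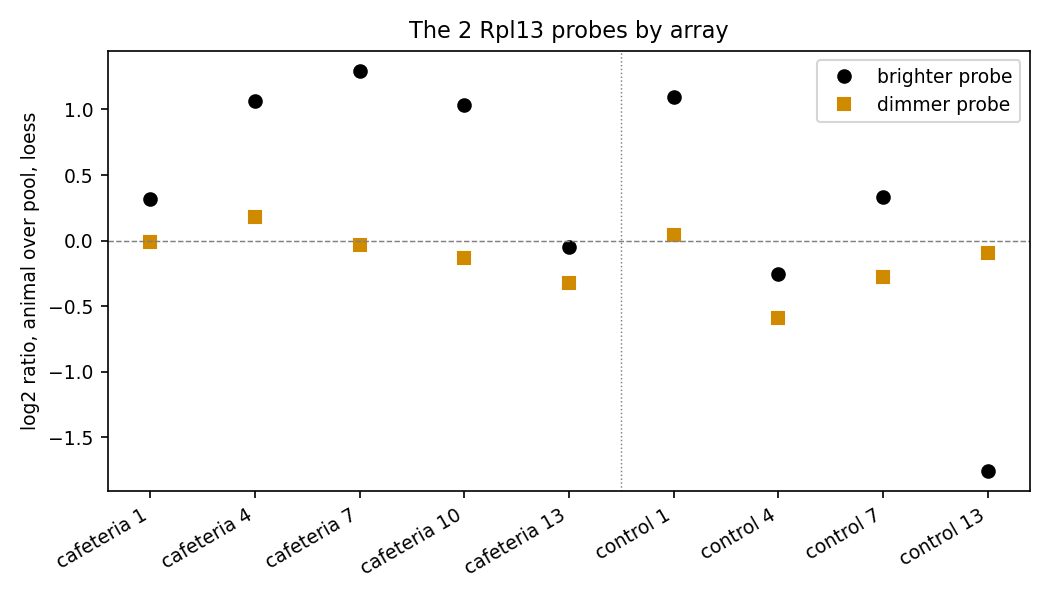
Log2 ratio of the animal over the pool after loess (vertical axis) at the brighter (black) and the dimmer (orange) probe of Rpl13 on each array, cafeteria left of control. On control 13 the brighter probe reads -1.76 and the dimmer one -0.09.

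Some proteins of the large subunit have roles outside peptide bond formation. Rpl5 and Rpl11 form with the 5S RNA a particle that, when free of ribosomes, binds Mdm2 and lets p53 build up. Rpl11 read 0.29, 0.52, 0.23, 0.12 and 0.13 in cafeteria 1, 4, 7, 10 and 13, and 0.20, -0.29, -0.06 and 0.25 in control 1, 4, 7 and 13, a difference of 0.23 (SE 0.12). Its control values lay on both sides of 0, and every cafeteria value was above 0. Control 1 and control 13 lay above cafeteria 10 and cafeteria 13, so the groups overlapped. The difference of Rpl11 ran from -0.13 to 0.31 under the alternatives. Rpl5 averaged 0.64 ± 0.21 (SD, n = 5) on the cafeteria diet and 0.41 ± 0.34 (SD, n = 4) on chow, a difference of 0.23 (SE 0.16). Rpl10, which joins the large subunit late and is needed for subunit joining, averaged 0.15 ± 0.19 (SD, n = 5) on the cafeteria diet and -0.10 ± 0.25 (SD, n = 4) on chow, a difference of 0.24 (SE 0.13). Rpl13a, which in human monocytes leaves the ribosome to silence inflammatory mRNAs, was among the most variable members: its mean was 0.52 ± 0.22 (SD, n = 5) on the cafeteria diet and 0.34 ± 0.49 (SD, n = 4) on chow.

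Rpl22, a protein that mouse T cell development needs, was among the least variable, at 0.29 ± 0.11 (SD, n = 5) on the cafeteria diet and 0.22 ± 0.14 (SD, n = 4) on chow. Rpl3l, the paralog of Rpl3 that striated muscle makes, did not follow the other members. It read -0.62, -0.57, 0.38, 0.02 and -0.03 in cafeteria 1, 4, 7, 10 and 13, and 0.07, -0.35, -0.22 and -0.41 in control 1, 4, 7 and 13. Cafeteria 1 and 4, high for the other members, were its lowest values. Rpl14 and Rpl21 also stood among the 5 of largest SD, with differences of 0.25 (SE 0.20) and 0.15 (SE 0.24).

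The stalk of the large subunit binds the translation factors through acidic P proteins. Rplp1 was at 0.71 ± 0.24 (SD, n = 5) on the cafeteria diet and 0.58 ± 0.34 (SD, n = 4) on chow, and Rplp2 at 0.29 ± 0.14 (SD, n = 5) on the cafeteria diet and 0.10 ± 0.34 (SD, n = 4) on chow. The Cy5 spot of Rplp1 was saturated on 4 cafeteria and 2 control arrays, and its values there are bounded by the scanner. No probe carried the name Rplp0 in the files. A probe named Arbp there, an older name that RefSeq gives as Rplp0 by accession, fell outside the rule and was at -0.16 ± 0.10 (SD, n = 5) on the cafeteria diet and -0.08 ± 0.12 (SD, n = 4) on chow, a difference of -0.07 (SE 0.08). By the same route RefSeq gave the name Rpl37al2 to a probe with a difference of 0.02 (SE 0.11).

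In the small subunit 27 of 31 genes had a difference above 0, with a median of 0.13, and 6 of 31 with median centring. Rps3a, a protein of the subunit's solvent side (chromosome 2, 178092899 to 178092958, minus strand, rn4), read 0.61, 0.86, 0.53, 0.33 and 0.35 in cafeteria 1, 4, 7, 10 and 13. The controls 1, 4, 7 and 13 were at 0.23, -0.11, 0.26 and 0.54. The lowest cafeteria value lay above all controls but control 13. The difference was 0.31 (SE 0.14, 1.24-fold, limma adjusted p 0.997), and it was 0.19 without control 4 and 0.05 with median centring. Under the alternatives it ran from -0.21 to 0.41. The start of Rps3a carries the tract shown above.

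Rps12, a small subunit protein near the beak, varied little among cafeteria animals, at 0.78 ± 0.10 (SD, n = 5), and was at 0.58 ± 0.22 (SD, n = 4) on chow. Its control values were 0.63, 0.25, 0.75 and 0.68 in control 1, 4, 7 and 13, with control 4 alone far below the cafeteria values of 0.61 to 0.88. The difference of 0.20 (SE 0.10) came to 0.09 without control 4 and to -0.06 with median centring. Rps15a, Rps16 and Rps14 had differences of 0.28 (SE 0.17), 0.27 (SE 0.15) and 0.25 (SE 0.15). In control 4 they read -0.40, 0.00 and -0.36, the lowest value of the 9 for each.

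Rps7, a protein needed to process the small subunit RNA, was the member with the most negative difference (chromosome 5, 169076643 to 169076699, minus strand, rn4). It read 0.22, -0.06, -0.26, -0.26 and -0.31 in cafeteria 1, 4, 7, 10 and 13, and 0.32, -0.17, 0.15 and 0.12 in control 1, 4, 7 and 13. Cafeteria 1 was above 3 of the 4 controls and control 4 above 3 of the 5 cafeteria animals, so the groups overlapped. The difference was -0.24 (SE 0.13, limma unadjusted p 0.0911, adjusted p 0.997). Of the 33 named genes, only Rps7 kept 1 sign throughout. Its difference was below 0 under all 24 alternatives run for it, from -0.37 to -0.02. Some of these, such as another prior or filter, could not change the difference, and those with 1 array left out share most of their data. The files place this probe on chromosome 5, while RefSeq places Rps7 on chromosome 6, so signal from a near-identical copy cannot be told apart from that of Rps7.

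Rpsa, the laminin receptor protein that small subunits need for late maturation, was at -0.28 ± 0.25 (SD, n = 5) on the cafeteria diet and -0.28 ± 0.29 (SD, n = 4) on chow. Rps6, whose phosphorylation is the usual readout of the mTOR pathway, was at 0.71 ± 0.25 (SD, n = 5) on the cafeteria diet and 0.57 ± 0.27 (SD, n = 4) on chow, with its Cy5 spot saturated on 3 cafeteria and 2 control arrays, where its values are bounded by the scanner. Rps3, at the mRNA entry site, was at -0.10 ± 0.20 (SD, n = 5) on the cafeteria diet and -0.20 ± 0.32 (SD, n = 4) on chow. Rps27a, made as a fusion with ubiquitin, had a difference of 0.13 (SE 0.13). Rps23, at the decoding centre, was saturated in Cy5 on all 5 cafeteria and 3 of 4 control arrays, so its ratio is bounded by the scanner and no fold is given.

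The least variable members were Rpl37a, Rps26, Rpl22, Rps10 and Rps25. Rpl37a, a zinc-binding protein of the large subunit, read 0.01, -0.02, -0.03, 0.03 and -0.19 in cafeteria 1, 4, 7, 10 and 13, and 0.00, -0.01, 0.07 and 0.06 in control 1, 4, 7 and 13. Its probe was the dimmest member, at percentile 31.4 of signal. Rps26, at the mRNA exit channel, stayed within 0.24 over the 9 arrays, at 0.14 ± 0.06 (SD, n = 5) on the cafeteria diet and 0.11 ± 0.10 (SD, n = 4) on chow. Neither showed the low value on control 4 that most members had. Rps15 and Rpl7a, also among the 8 most negative, had differences of -0.03 (SE 0.10) and -0.01 (SE 0.23).

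In humans, mutations of many ribosomal protein genes cause Diamond-Blackfan anaemia, a failure of red cell production. Of the 19 such genes measured, 18 had a difference above 0 under loess (median 0.15), all but Rps7, and 5 did with median centring (median -0.041). None of the 19 passed the adjusted threshold. Rps19, the gene most often affected, was at 0.20 ± 0.15 (SD, n = 5) on the cafeteria diet and 0.03 ± 0.25 (SD, n = 4) on chow, a difference of 0.17 (SE 0.12).

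Several probes of one gene mostly agreed in sign. Of 26 genes with more than 1 probe, 7 had probes on both sides of 0. After Rpl13 the widest gaps were those of Rpl37, with differences of 0.18 and -0.05, and Rps25, with 0.05 and -0.16. In both genes the second probe comes from an expressed sequence tag placed on the opposite strand. The 2 Rps25 probes cover the same 60 bases, chromosome 8 from 47375104 to 47375163, on opposite strands. The sense probe read 0.25, 0.22, 0.03, -0.11 and 0.09 in cafeteria 1, 4, 7, 10 and 13. The opposite probe read 0.01, -0.17, -0.29, -0.43 and -0.04 there. Altogether 4 genes had a probe on the strand opposite to their main one.

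Ribosomal protein genes have many processed copies in mammalian genomes, and the probes cannot separate near-identical ones. For 9 of 72 members the files place the probe on another chromosome than the RefSeq gene, and that of Rpl36 on unplaced sequence. Of these 10, 8 had a difference above 0 (median 0.11), against 58 of the 62 others (median 0.14). By accession, 62 members matched RefSeq, 2 of them under another symbol: the Rpl36a probe as Rpl36al1 and the Rpl37 probe as Rpl37l1. A further 263 tested probes outside the rule are described in the files as similar to a ribosomal protein. Of these, 176 had a difference above 0 and their median was 0.03, against 77 and a median of -0.046 with median centring.

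Genes that serve the cytosolic ribosome without being named as its proteins were described by list, and 0 of their members passed the adjusted threshold. Among 21 other mRNAs known for a TOP tract, 16 had a difference above 0 and the median was 0.10, against 6 and a median of -0.046 with median centring. Fau, whose fusion product includes ribosomal protein S30, was at 0.27, 0.47, 0.40, 0.20 and 0.34 in cafeteria 1, 4, 7, 10 and 13, and at 0.17, -0.23, 0.13 and 0.27 in control 1, 4, 7 and 13. Its difference was 0.25 (SE 0.10, limma unadjusted p 0.0375). Nap1l1, a histone chaperone, and Pabpc1, the poly(A)-binding protein, of the same list had differences of -0.28 (SE 0.13) and -0.24 (SE 0.17).

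Among 38 initiation and elongation factors 26 had a difference above 0, with a median of 0.03, against 17 and a median of -0.025 with median centring. Eif3a, the largest scaffold subunit of initiation factor 3, was the one gene of the 38 whose groups did not overlap, where 0.818% of all probes lay wholly lower. It read 0.09, -0.19, -0.07, -0.68 and -0.51 in cafeteria 1, 4, 7, 10 and 13, and 0.43, 0.13, 0.26 and 0.15 in control 1, 4, 7 and 13. The difference was -0.52 (SE 0.15, limma unadjusted p 0.00653, adjusted p 0.985). Eif4e2, a cap-binding protein, had a difference of -0.17 (SE 0.08). The median of the factors was -0.20 on control 4 and -0.10 to 0.03 on the other arrays.

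Among 40 ribosome assembly genes 25 had a difference above 0, with a median of 0.03. Ubtf, a transcription factor of RNA polymerase I, had -0.46 (SE 0.16), Polr1a, the largest subunit of that polymerase, 0.17 (SE 0.06) and Eif6, which keeps the subunits apart, 0.21 (SE 0.09). The mitochondrial ribosomal proteins, which are encoded in the nucleus but serve another ribosome, had 37 of 65 differences above 0, with a median of 0.01. Mrpl46 had 0.14 (SE 0.06), Mrps15 -0.15 (SE 0.07) and Mrpl45 -0.17 (SE 0.09).

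In the TOR pathway 10 of 12 genes measured had a difference above 0, with a median of 0.05. Eif4ebp2 and Eif4ebp1, repressors of cap-dependent translation that mTOR inactivates, had -0.29 (SE 0.15) and -0.26 (SE 0.17). Rps6ka1, a kinase of ribosomal protein S6, had 0.26 (SE 0.14), while Rps6kb1, another S6 kinase of the list, had 0.05 (SE 0.10). Mtor itself had a difference of 0.08.

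**Figure D5:**
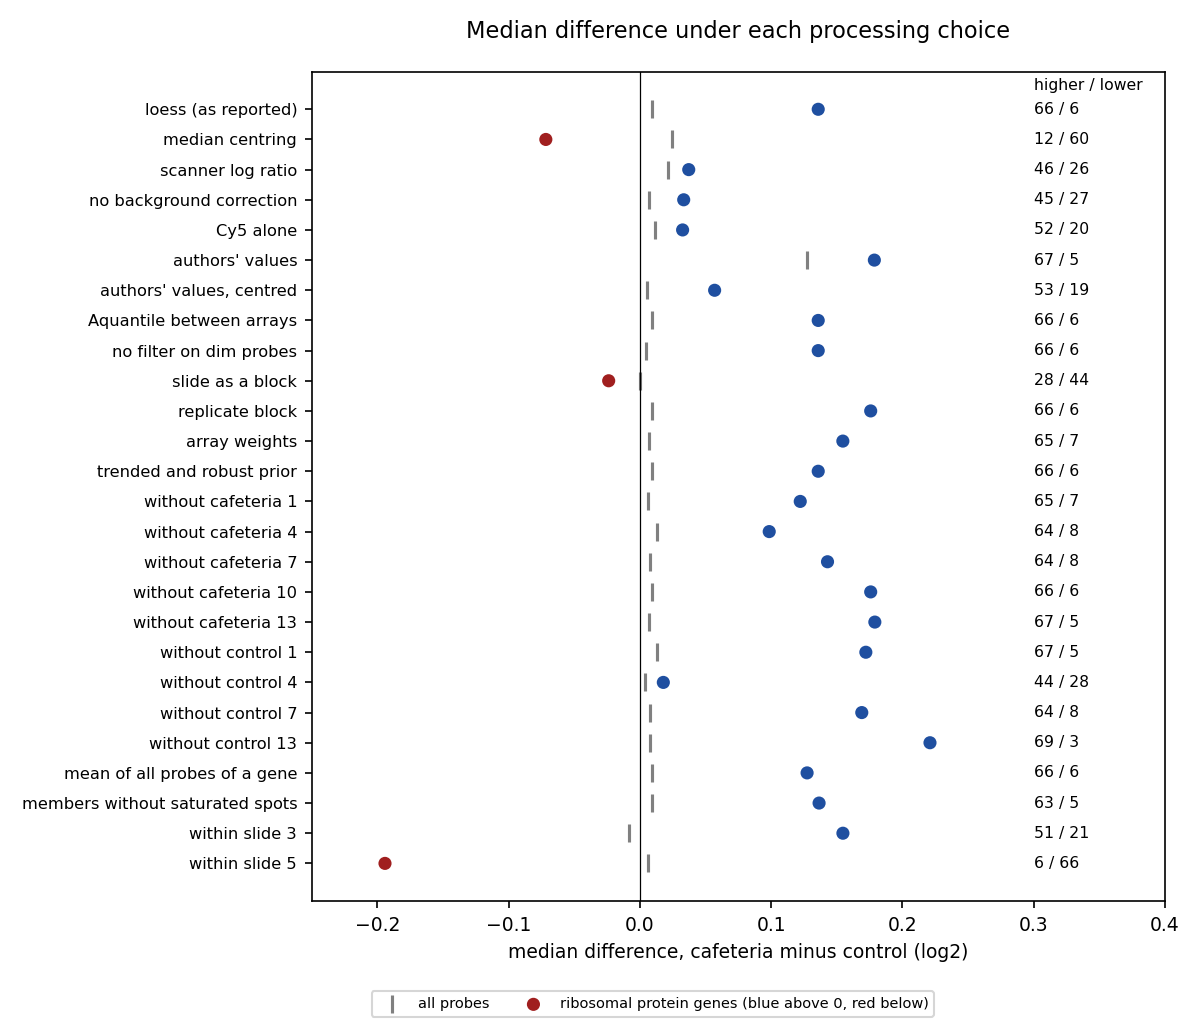
Median difference, cafeteria minus control, on the log2 scale (horizontal axis) of the cytosolic ribosomal protein genes (points) and of all probes (grey ticks) under the reported processing and each alternative (rows), with the number of genes above and below 0 at the right. The median is 0.14 as reported, -0.072 with median centring, -0.024 with the slide as a block, 0.018 without control 4 and -0.19 within slide 5.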

How the data were processed

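The authors deposited 1 scanner file per array, with mean spot and local background intensity of both dyes and a log10 ratio of Cy5 over Cy3 made by Agilent Feature Extraction 9.5.1.1, per the file headers. The authors' deposited value table is on a log2 scale and follows Cy5; how the pool entered it is not given in the sources used here. From the intensities, background was corrected by normexp (offset 50), ratios were normalized by loess within arrays, flagged outlier spots were dropped and spots of a probe averaged. Probes with Cy5 well above background on at least 4 arrays were kept (25805 of 41012). Cafeteria and control arrays were compared with limma 3.58.1 in R 4.3.3 (7 residual and 2.94 prior degrees of freedom), adjusting over all probes, and the fit was tested on simulated data. Figures used matplotlib 3.10.9. The share of spots with Cy5 well above background was 58.8% to 66.7% per array, and the number of arrays limits the precision. Labels name no litter or cage, and each animal gave 1 array, so p-values measure the spread between these animals together with that between arrays and slides. Genes were updated through RefSeq accessions. Probe positions are rn4, and exon or UTR is not given in the sources used here. The 9 arrays lay on 7 slides, each its own scan, of which 2 held both groups.

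Members, lists and tests were chosen with earlier results of these data known. Named genes were the 8 largest and 8 most negative differences, the 5 smallest p, the 5 largest and 5 smallest SD within groups, the genes set by role, and 3 genes whose probes differ most. Some genes that meet this rule are not reported here. From each pathway list they were the 3 of smallest p. Mtor, Rps6kb1, Rhag, Gata1, Tfrc, Rpl37al2, Rplp0 and the sequences of Rpl31 and Rpl19 were added after the values were seen. Alternatives changed the background, normalization, filter, blocks, array weights, prior, arrays and probe choice. Arrays with the same number in both groups deviated from their group means with correlations of -0.15 to 0.11 over probes. Cafeteria 1 and control 1 also shared a slide. Whether equal numbers mark a pairing of animals cannot be told from the labels.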

Additional observations from a re-analysis of the deposited data

Results flagged for a closer look

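Of 92 sets of values of one group, 4 held an array far from the others by Dixon's criterion, which chance gives in about 1 of 20 such sets. Rps23 read 0.47 in control 4, against 1.10 to 1.16 in the other controls, and its spots were saturated on most arrays. Rpl7a read -0.53 and Rpl37a -0.19 in cafeteria 13, both under the other cafeteria animals. The median of the ribosome assembly genes was -0.078 in control 7, against -0.03 in the other controls. The cause of these values was not tested.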

How the results depend on the processing

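Across all probes 2 passed the adjusted threshold. The count was 0 with median centring, the scanner log ratio, no background correction, Cy5 alone, the authors' deposited values as given or centred, the slide as a block, the replicate block, array weights and a trended robust prior. It was 0 to 2 with 1 array left out, and 2 without the filter and with Aquantile, which by construction leaves the ratios as they are. No member passed under any of these. The median member difference of 0.14 was -0.072 with median centring, -0.024 with the slide as a block and -0.19 within slide 5. It ran from 0.018 (without control 4) to 0.22 (without control 13) with 1 array left out. It was 0.18 in the authors' deposited values, where the median of all probes was 0.13, and 0.057 once these were centred. It was 0.037 with the scanner log ratio, and 0.033 both without background correction and with Cy5 alone. The replicate block gave 0.18 over the 8 arrays whose number occurs in both groups. The SD of the array median was 0.19, against 0.42 with median centring, and 0.12 to 0.21 with 1 array left out. Of 33 named genes, 17 turned sign with median centring and 14 with the slide block. The causes were not tested. The slide block rests on 2 pairs of arrays, and the number of arrays limits the rest.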
